A study of Rattus norvegicus with 9 samples.

Results

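The genes described here encode the sodium, potassium and calcium channels of the cell membrane, with the HCN channels and the accessory subunits that carry a channel symbol. They were taken by gene symbol alone: every gene whose probe set bore 1 symbol beginning with Scn, Kcn, Cacn or Hcn in the form used for channel subunits. This gave 127 genes of the 21013 genes with a single symbol on the array, and for the 3 genes with 2 probe sets (Kcne1, Kcnj1 and Kcnk6) the brighter one over all arrays was used. A further 2 probe sets that carry a channel symbol together with another gene's symbol were left out.

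The heartbeat rests on these proteins. In a ventricular myocyte, sodium channels start the action potential, L-type calcium channels hold its plateau and trigger contraction, and several kinds of potassium channel end it and keep the membrane at rest between beats. Pore subunits (the alpha subunits of sodium and calcium channels, and the Kv, Kir, two-pore-domain and calcium-activated potassium channels) pass the ions, while beta, alpha2delta, gamma, KCNE and KChIP subunits set how many pores reach the membrane and how they gate. Many members of these families are best known from neurons, skeletal muscle, smooth muscle or endothelium, and whole ventricle contains vessels and nerves as well as myocytes.

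RNA came from the left ventricle of male Wistar rats in 3 groups of 3 arrays. Control rats had a thread passed around the left anterior descending coronary artery that was never tightened, and were kept so for 60 min. IRI (ischemia-reperfusion injury) rats had that artery blocked for 45 min and then opened, and IRI + RPostC (remote postconditioning) rats had the same occlusion together with 3 cycles of 30 s clamping and 30 s opening of the left femoral artery. In both of these groups 15 min of stabilization came before the chest was closed. A second passage on the surgery puts the ligation at 30 min instead, and the time between reperfusion and tissue collection was not found. It was also not found whether each array stands for a different rat, so the p-values measure the spread between arrays, which may be technical. The 3 groups shared strain, sex and open-chest surgery, so control is a sham-operated heart and not an untouched one.

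Values are log2 signals, so a difference of 1 is a doubling of signal. Each array's median over all probe sets lay between 4.36 and 4.55, but 1918 to 1948 probe sets stood at 19 or more on each IRI and IRI + RPostC array against 166 to 172 on the control arrays, and arrays correlated at 0.809 to 0.856 between control and IRI against 0.979 to 0.983 within control. No channel gene reached 19 on any array. The mean of 4 hybridization control probe sets, added in equal amounts to every sample, was 10.93 to 11.48 on control, 10.09 to 10.83 on IRI and 10.42 to 10.48 on IRI + RPostC arrays. The sources used here do not say whether control arrays were normalized together with the others, and such a difference cannot be told apart from the surgery. Cardiomyocyte markers were bright in every group, with a mean of 16.04 to 16.99 over the 10 of 12 listed that were measured. Of the 5 atrial markers, Nppa was 12.71 to 14.20, Myl7 5.17 to 7.07 and Myl4 5.10 to 5.24, while Sln was above background on 1 array and Bmp10 on none.

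Channel transcripts were dim on this array. A limit of 4.82, the 95th percentile of 275 olfactory, vomeronasal and taste receptor probe sets, was taken as background, and a gene below it on all 3 arrays of a group was called not above background there. By that rule 83 of the 127 genes were not above background in any group, 44 were above it on at least 1 array, and 24 were above it on all 9 arrays. Between 36 and 39 channel genes exceeded the limit on a control array, 27 to 32 on an IRI array and 26 to 31 on an IRI + RPostC array. Many probe sets, most of them dim, carried the same value on several arrays. In 6 genes, Cacna1h, Kcnh3, Kcnh4, Kcnj9, Kcnk6 and Kcnk18, all 9 arrays had 1 value. In 62 genes at least 5 of the 9 arrays shared a value, and 10 of these genes were above background on at least 1 array. Such repeated values make the spread between arrays look small.

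**Figure D1:**
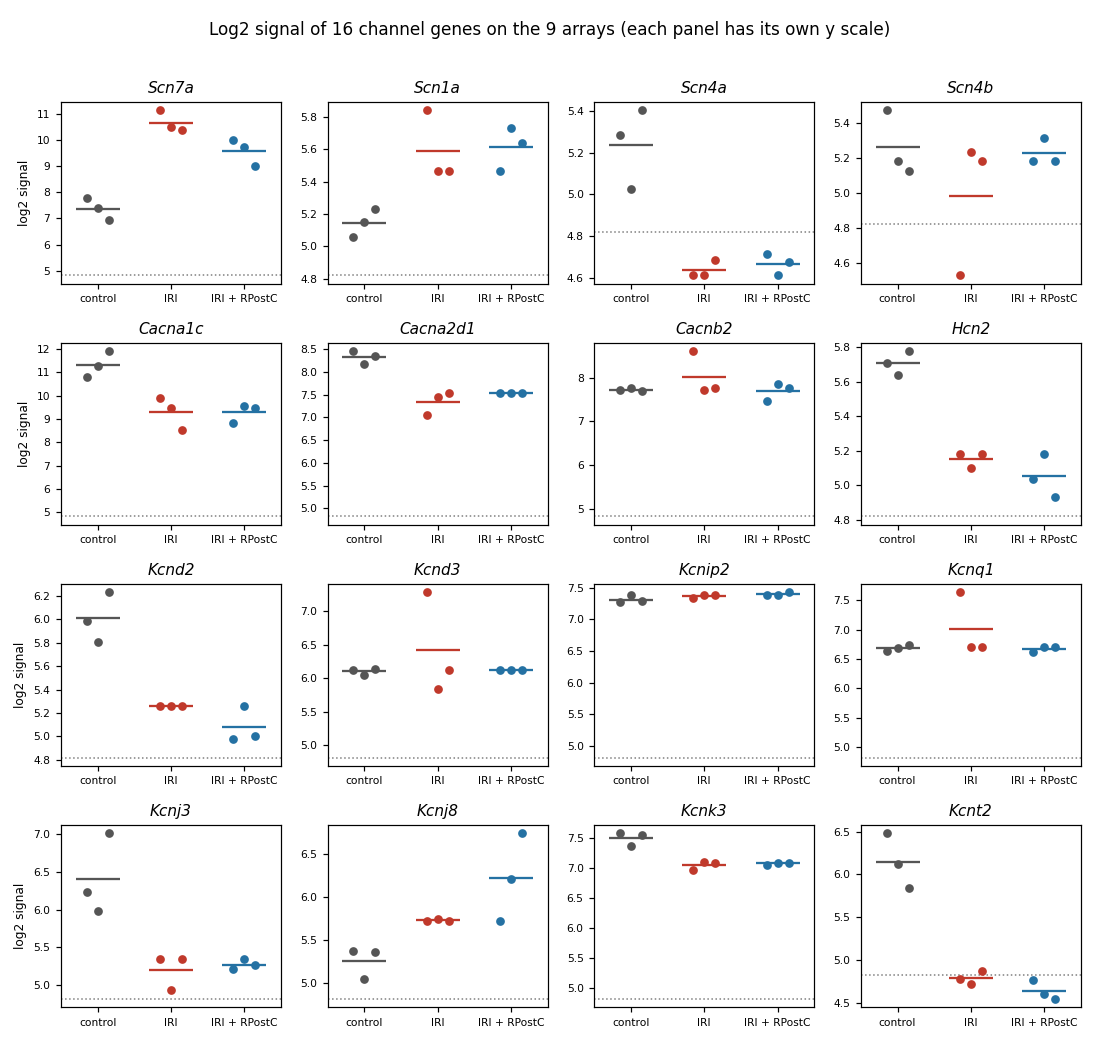
Log2 signal of 16 channel genes on each of the 9 arrays; points are arrays, horizontal bars are group means, the dotted line is the background limit of 4.82, and each panel has its own y scale. Scn7a, Scn1a and Kcnj8 stood above control on all 6 other arrays. Scn4a, Cacna1c, Cacna2d1, Hcn2, Kcnd2, Kcnj3, Kcnk3 and Kcnt2 stood below control on all 6, and Kcnip2 lay within 7.27 to 7.43 throughout.

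In IRI hearts more channel genes fell than rose. Against control, 22 genes were lower and 3 were higher at an adjusted p under 0.05, from limma with Benjamini-Hochberg adjustment over 65403 probe sets. Over all probe sets 6.26% were called lower and 9.95% higher, and over 1 probe set per gene 9.42% lower and 8.9% higher, so on the deposited values 22 of 127 (17.3%) is above the lower share and 3 of 127 (2.36%) below the higher share. The split of calls over all probe sets was itself unstable, since 61.4% of them were higher on the deposited values, 34.7% after quantile normalization and 71.8% after centring. After quantile normalization 17 channel genes were lower, 13.4% beside 13.7% of all probe sets, so the larger lower share of the channel genes was not seen on that scale, and 1 was higher. After centring 13 were lower, 10.2% beside 4.48%, and 3 were higher. Of the 25 calls, 14 were kept under both scalings, while Cacna1d, Cacnb1, Cacnb3, Kcne1l, Kcnf1, Scn2a and Scn8a were lost under both. Of the 22 lower genes, 9 were not above background in either group, so their signal fell within the range of the receptor probe sets and no fold is given for them. The median difference of all 127 genes was -0.04, equal to the median of -0.04 over all probe sets, and it was 0.00 after quantile normalization and 0.04 after centring.

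Hearts that also had RPostC gave nearly the same list. Against the same control arrays, 26 channel genes were lower and 4 higher, where 6.95% of all probe sets were lower and 10.7% higher, and 9.84% and 10.2% of genes. After quantile normalization 20 were lower, 15.7% beside 14.2% of all probe sets. All 22 genes lower in IRI and all 3 higher in IRI were called in the same direction here. The genes called only in this comparison were Kcnd1, Kcnh8, Kcnk15 and Scn10a, which were lower, and Kcnj8, which was higher. Because both comparisons use the same 3 control arrays, a shift in those arrays would move both. The median difference of the 127 genes was -0.06 here, beside -0.06 over all probe sets, and centring moved the median over all probe sets by 0.12, to 0.06. Control and IRI arrays did not overlap in 31 genes that were lower and 5 that were higher in IRI, where 14.6% of all probe sets and 18.2% of genes were lower without overlap and 14.8% and 14.1% higher. For IRI + RPostC these were 38 and 6 genes, beside 17.3% of probe sets and 19.8% of genes lower, and 15.6% and 15.7% higher.

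**Figure D2:**
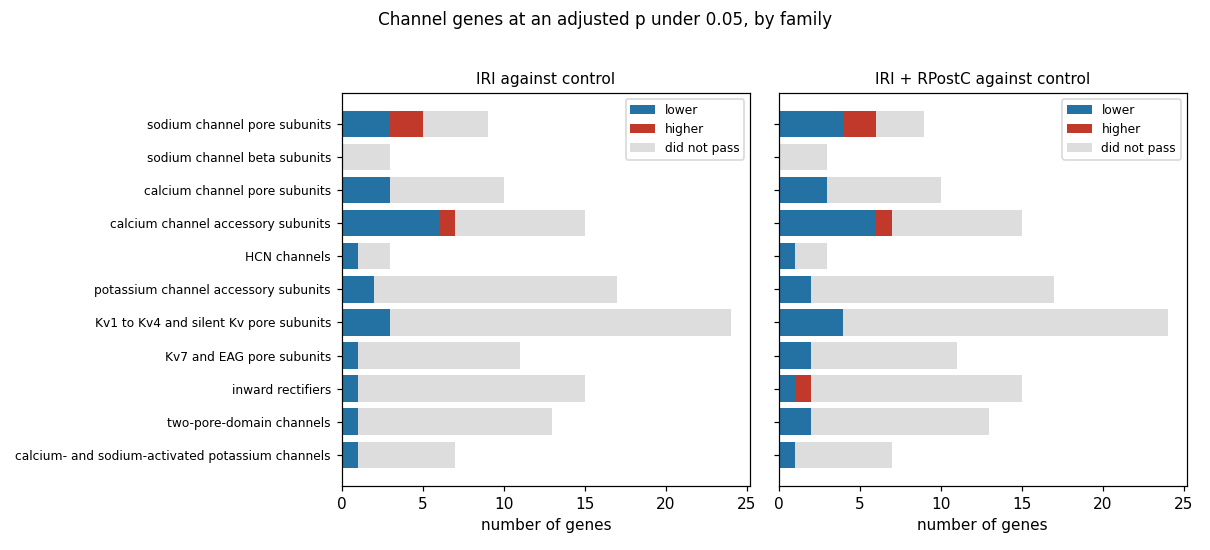
Number of channel genes per family (x axis) that were lower, higher or did not pass the test at an adjusted p under 0.05, in IRI against control and in IRI + RPostC against control. Calcium channel accessory subunits held 6 lower genes of 15 in both panels, and sodium channel pore subunits held both higher and lower genes.

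Family by family, the lower calls of IRI against control were 6 of 15 calcium channel accessory subunits, 3 of 10 calcium channel pores, 3 of 9 sodium channel pores, 3 of 24 Kv1 to Kv4 and silent Kv pores, 2 of 17 potassium channel accessory subunits, and 1 each of 3 HCN channels, 11 Kv7 and EAG pores, 15 inward rectifiers, 13 two-pore-domain channels and 7 calcium- or sodium-activated potassium channels. Set against 6.26% of all probe sets and 9.42% of genes called lower, the families with 1 or 2 such genes of 11 to 17 lay near that share. None of the 3 sodium channel beta subunits passed. The higher calls were 2 sodium channel pores and 1 calcium channel accessory subunit.

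On the deposited values Scn7a, Cacna1c and Kcnt2 differed most from control in IRI among the channel genes (after quantile normalization Cacna1c, Scn7a and Cacna2d1), and Kcnd2 is a pore of the transient outward current whose call held under every setting. The promoters of these 4 genes, chosen after their values were seen, are shown as those of the members on which the comparison with control turns. Each line gives 300 bases of the RefSeq sequence of rat build GRCr8, from 250 bases before to 50 bases after the annotated start, 5′ to 3′ on the gene's own strand. Scn7a lies at chr3:71846235-71846534 on the minus strand, Cacna1c at chr4:154051699-154051998 on the minus strand, Kcnd2 at chr4:50742235-50742534 on the plus strand and Kcnt2 at chr13:54215057-54215356 on the plus strand. Capitals mark a GC box, GGGCGG on either strand, the site known for the factor SP1.
Scn7a: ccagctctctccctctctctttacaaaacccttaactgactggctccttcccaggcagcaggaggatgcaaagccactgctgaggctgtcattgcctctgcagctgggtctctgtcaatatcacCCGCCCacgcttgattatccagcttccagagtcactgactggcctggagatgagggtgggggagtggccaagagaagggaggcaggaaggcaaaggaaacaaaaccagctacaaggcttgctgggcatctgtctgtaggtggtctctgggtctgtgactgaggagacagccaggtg
Cacna1c: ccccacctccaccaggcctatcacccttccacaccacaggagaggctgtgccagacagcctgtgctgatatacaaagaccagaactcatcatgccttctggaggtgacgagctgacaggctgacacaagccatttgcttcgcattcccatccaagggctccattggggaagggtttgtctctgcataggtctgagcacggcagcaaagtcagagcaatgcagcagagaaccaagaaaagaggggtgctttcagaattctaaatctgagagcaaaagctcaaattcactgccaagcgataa
Kcnd2: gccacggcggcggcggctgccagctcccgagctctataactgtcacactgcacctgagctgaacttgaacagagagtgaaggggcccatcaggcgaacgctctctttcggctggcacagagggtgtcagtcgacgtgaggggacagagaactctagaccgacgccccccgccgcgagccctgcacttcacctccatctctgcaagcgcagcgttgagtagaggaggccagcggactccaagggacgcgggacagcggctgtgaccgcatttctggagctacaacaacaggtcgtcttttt
Kcnt2: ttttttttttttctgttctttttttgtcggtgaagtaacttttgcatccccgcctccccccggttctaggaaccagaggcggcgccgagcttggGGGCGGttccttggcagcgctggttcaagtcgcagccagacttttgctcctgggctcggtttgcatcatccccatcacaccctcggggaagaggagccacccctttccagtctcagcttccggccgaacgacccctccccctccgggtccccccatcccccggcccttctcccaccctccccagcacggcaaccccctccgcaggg
The GC content of these windows was 56% for Scn7a, 51.7% for Cacna1c, 61.7% for Kcnd2 and 62.3% for Kcnt2. The GC box stood 126 bases before the start of Scn7a and 156 bases before that of Kcnt2, and the letters were not found in the windows of Cacna1c and Kcnd2. Over the 97 promoter entries of 88 channel genes that matched the RefSeq table, 51 held a GC box, 52.6%, against 33.1% of all 33469 promoters. The TATA letters TATAAA were in 4 of the 97, 4.12%, against 14.2% of all promoters. The AP-1 letters TGANTCA were in 4, against 7.33% of all, the GATA letters GATAAG in 9, against 7.05%, the MEF2 letters (CTA, any 4 bases, TAG) in 1, against 3.84%, and the CRE letters TGACGTCA in 0, against 1.83%. Of the 16 promoter entries of genes lower in IRI, 11 held a GC box, 1 the TATA letters and 1 the GATA letters. All 6 motifs were sought on both strands, and a match is a description of letters and not of a bound site.

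Scn7a showed the largest difference of the 127 genes on the deposited and the centred values, and after quantile normalization Cacna1c did. It encodes Nax, an atypical member of the sodium channel family that is gated by extracellular sodium rather than by voltage. Its log2 signal was 7.78, 7.40 and 6.94 on the 3 control arrays, 11.12, 10.48 and 10.37 on the IRI arrays, and 9.99, 9.72 and 9.01 on the IRI + RPostC arrays. All 6 arrays of occluded hearts were above all control arrays, and the IRI arrays were above the IRI + RPostC arrays. The mean rose from 7.37 ± 0.42 (SD, n = 3) in control to 10.65 ± 0.41 in IRI, a log2 difference of 3.28 (SE 0.34, 9.75-fold, adjusted p = 0.000443), and to 9.58 ± 0.51 in IRI + RPostC, a log2 difference of 2.21 (4.61-fold, adjusted p = 0.00346). Both differences passed the test under all 16 alternative settings, with a log2 difference of 2.26 in IRI after quantile normalization.

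Summed marker signals of cardiomyocytes, endothelium, fibroblasts and leukocytes were also higher on these arrays. For the 10 of 12 listed cardiomyocyte markers measured, the summed log2 signal was 160.4 to 161.7 on control arrays. It was 169.0 to 169.6 on IRI and 169.0 to 169.9 on IRI + RPostC arrays. After quantile normalization these cardiomyocyte sums were 183.0 to 187.0, 149.7 to 151.6 and 149.4 to 150.2. The summed log2 signal of the 8 of 10 listed endothelial markers measured was 60.3 to 64.0 on control, 77.5 to 85.8 on IRI and 80.2 to 81.5 on IRI + RPostC arrays, with none of them below background. For the 9 fibroblast markers it was 71.9 to 76.6, 82.3 to 83.7 and 85.0 to 85.5. For the 10 leukocyte markers it was 52.9 to 53.3, 58.3 to 59.2 and 57.9 to 59.9, with 1 leukocyte marker below background in each group. In IRI 4 of the 9 fibroblast and 3 of the 10 leukocyte markers were called higher and 0 lower. Over all genes 8.9% were higher and 9.42% lower. Dcn rose most of the fibroblast markers, by 6.46 in IRI (-1.14 after quantile normalization). It carried the same value, 18.82, on all 6 IRI and IRI + RPostC arrays. Postn was 2.10 lower and did not pass with limma (adjusted p = 0.0838). Neuron and Schwann cell markers were summed at 31.1 to 31.4, 30.7 to 30.9 and 30.9 to 31.1 over the 7 of 11 measured, and 6 of those 7 were not above background in any group. The sum of the 10 pericyte and smooth muscle markers overlapped with control, at 91.4 to 92.9, 90.4 to 98.5 and 90.7 to 94.4. After quantile normalization the endothelial sum stayed higher, at 70.1 to 72.0 on control, 73.6 to 81.4 on IRI and 75.1 to 76.1 on IRI + RPostC arrays, as did the leukocyte sum, while the fibroblast sum turned lower, at 86.5 to 89.7, 77.8 to 79.3 and 79.5 to 79.9. The part of these cell types in the Scn7a difference was not tested, and in bulk tissue fewer cells of a type and less RNA per cell cannot be told apart.

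The other sodium channel pores lay near background. Scn1a, a pore best known from neurons, was 5.06, 5.15 and 5.23 on control, 5.84, 5.47 and 5.47 on IRI and 5.47, 5.73 and 5.64 on IRI + RPostC arrays. The groups did not overlap with control, and Scn1a rose by 0.45 in IRI (adjusted p = 0.0452) and by 0.47 in IRI + RPostC (adjusted p = 0.0358), calls that only 4 and 8 of 16 alternative settings kept. Scn4a, the pore of skeletal muscle, was 5.29, 5.02 and 5.40 on control arrays and between 4.61 and 4.71 on the other 6. It was lower by 0.60 (adjusted p = 0.00397) and 0.57 (adjusted p = 0.00479), but since it was not above background after IRI the fall in log2 signal is only known to be at least 0.42, or at least 1.34-fold. Scn2a, Scn8a and Scn10a, which are best known from neurons, stayed below background throughout. Scn2a and Scn8a were called lower in both comparisons and Scn10a only in IRI + RPostC, all by 0.15 to 0.26, and all 3 lost their calls after quantile normalization and after centring. Scn3a, also mainly neuronal, was 5.54 in control, 5.77 in IRI and 5.63 in IRI + RPostC and did not pass.

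Sodium channel beta subunits anchor and modulate the pore. Scn4b was the only one of the 3 above background, at 5.47, 5.18 and 5.13 on control, 4.53, 5.23 and 5.18 on IRI and 5.18, 5.31 and 5.18 on IRI + RPostC arrays. Only IRI replicate 1 was low, the groups overlapped, and the log2 difference of -0.28 in IRI had an adjusted p of 0.4. Scn2b stayed below background, with group means of 4.68, 4.66 and 4.63.

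Cacna1c encodes the pore of the L-type calcium channel, Cav1.2, whose current triggers calcium release and contraction. Its log2 signal was 10.81, 11.27 and 11.89 on control, 9.89, 9.47 and 8.50 on IRI and 8.83, 9.54 and 9.47 on IRI + RPostC arrays. The control arrays were all above the others, while IRI and IRI + RPostC arrays overlapped. The mean fell by 2.04 in IRI (SE 0.42, 4.10-fold, adjusted p = 0.0159) and by 2.05 in IRI + RPostC (4.14-fold, adjusted p = 0.0147). The size depends on the scaling: after quantile normalization the differences were -7.07 and -7.24. The call was kept by 13 of 16 alternatives in each comparison, and in IRI + RPostC it was lost without IRI + RPostC replicate 1 (adjusted p = 0.0513).

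On the deposited values accessory subunits of the same channel differed in direction. Cacna2d1, the alpha2delta subunit that carries the pore to the membrane, was 8.45, 8.18 and 8.34 on control, 7.05, 7.44 and 7.54 on IRI and 7.53, 7.54 and 7.54 on IRI + RPostC arrays. It was below control on all 6 arrays and fell by 0.98 in IRI (SE 0.13, 1.98-fold, adjusted p = 0.00167) and by 0.79 in IRI + RPostC (1.73-fold, adjusted p = 0.00486), with differences of -2.02 and -1.93 after quantile normalization, and all 16 alternatives kept both calls. Cacna2d2, another alpha2delta subunit, rose by 0.27 in IRI, from 5.23 ± 0.02 to 5.50 ± 0.05 (SD, n = 3, adjusted p = 0.00227), and by 0.22 in IRI + RPostC (adjusted p = 0.00614), calls lost after quantile normalization (adjusted p = 0.0567 and 0.182). Cacnb2, the main beta subunit of the cardiac L-type channel, was 7.71, 7.77 and 7.69 on control, 8.60, 7.71 and 7.77 on IRI and 7.46, 7.85 and 7.77 on IRI + RPostC arrays. IRI replicate 1 was the high array, and the log2 difference in IRI was 0.30 (95% confidence interval -0.26 to 0.86, adjusted p = 0.454). Over all settings the Cacnb2 difference in IRI ran from -0.56 to 0.46 and passed in none. In IRI + RPostC it was -0.03 (adjusted p = 0.962). After quantile normalization that difference was -0.98 and was called lower (adjusted p = 0.0154 with limma).

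Cacnb1, a beta subunit of skeletal muscle, fell by at least 0.08 in both comparisons, from 4.90 in control to values not above background. Cacng7, a gamma subunit best known from brain, fell from 5.31 ± 0.15 to 4.91 ± 0.15 (SD, n = 3) in IRI (log2 difference -0.40, adjusted p = 0.0486) and to 4.88 in IRI + RPostC (adjusted p = 0.0343), kept by 3 and 8 of 16 alternatives. Cacnb3, Cacnb4 and Cacng3 were called lower in both comparisons but were not above background in any group, and the calls of Cacnb1 and Cacnb3 were lost after quantile normalization and after centring. Among the other calcium channel pores, Cacna1s, the L-type pore of skeletal muscle, was 4.91, 4.96 and 4.85 on control and 4.35 to 4.45 on the other arrays. The Cacna1s difference of -0.50 in IRI (adjusted p = 0.000281) came with groups that did not overlap, but only a fall of at least 0.09 is known, since the gene was not above background after IRI. Cacna1d, an L-type pore of pacemaker cells, was lower by 0.17 in both comparisons but below background in every group, with both calls lost under either scaling, and the T-type pore Cacna1g did not pass, at 4.78 to 4.81 on all 9 arrays.

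**Figure D3:**
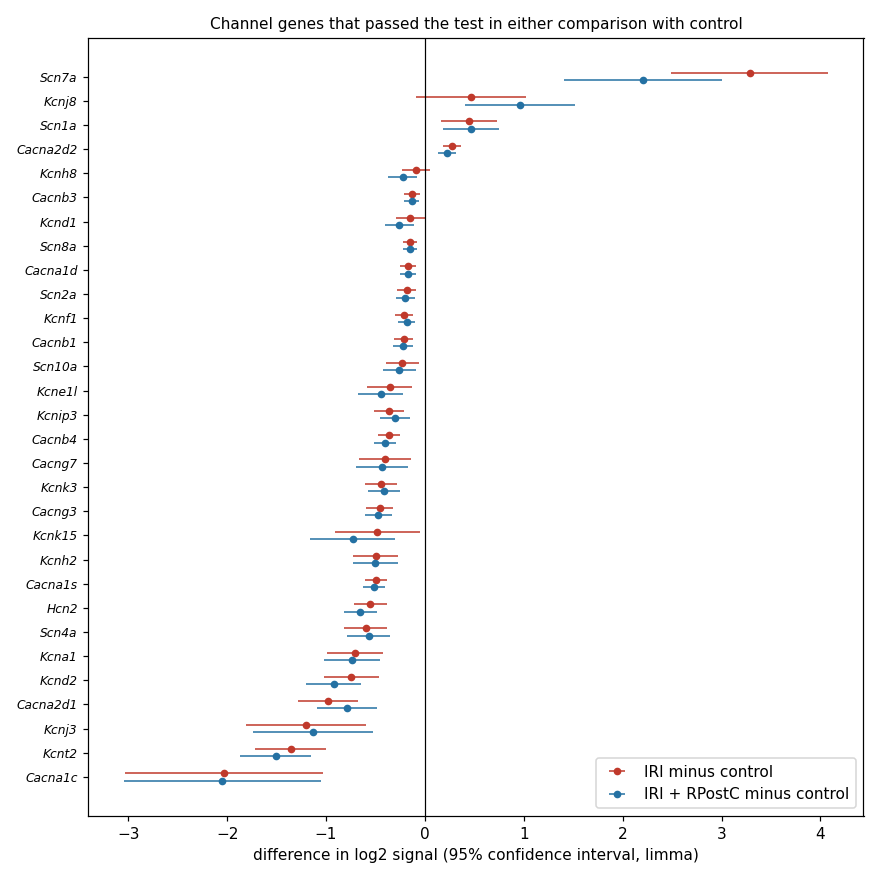
Log2 difference from control (x axis, points) with its 95% confidence interval from limma (bars) for the 30 channel genes that passed the test in either comparison, in IRI (red) and in IRI + RPostC (blue). Scn7a lay at 3.28 and 2.21, Cacna1c at -2.04 and -2.05, and the IRI and IRI + RPostC intervals of each gene overlapped.

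HCN channels carry the pacemaker current and are scarce in working ventricle. Hcn2, the ventricular isoform, was 5.71, 5.64 and 5.77 on control, 5.18, 5.10 and 5.18 on IRI and 5.04, 5.18 and 4.93 on IRI + RPostC arrays, without overlap with control. It fell by 0.55 in IRI (SE 0.07, 1.47-fold, adjusted p = 0.0015) and by 0.66 in IRI + RPostC (1.58-fold, adjusted p = 0.000565), and all 16 alternatives kept both calls. Hcn4, the isoform of the sinus node, was at 4.92, 4.92 and 4.83 on average and did not pass, and Hcn3 was not above background.

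The transient outward current shapes early repolarization in rat ventricle and is built from Kv4.2 (Kcnd2), Kv4.3 (Kcnd3) and the subunit KChIP2 (Kcnip2). Kcnd2 was 5.99, 5.81 and 6.23 on control, 5.26 on all 3 IRI arrays and 4.98, 5.26 and 5.01 on IRI + RPostC arrays. Control arrays were all higher, and Kcnd2 fell by 0.74 in IRI (SE 0.12, 1.68-fold, adjusted p = 0.00433) and by 0.92 in IRI + RPostC (1.90-fold, adjusted p = 0.00132), with both calls kept by all 16 alternatives. Kcnd3 was 6.12, 6.05 and 6.14 on control, 7.28, 5.84 and 6.13 on IRI and 6.13 on all 3 IRI + RPostC arrays, so that only IRI replicate 1 stood out; its difference in IRI was 0.31 (adjusted p = 0.581) with that array and -0.12 (adjusted p = 0.466) without it. Kcnip2 was 7.27, 7.38 and 7.29 on control, 7.35, 7.38 and 7.38 on IRI and 7.38, 7.38 and 7.43 on IRI + RPostC arrays. Its difference in IRI was 0.05 (95% confidence interval -0.04 to 0.15, adjusted p = 0.43), which turned to -0.62 (adjusted p = 0.00313) after quantile normalization. Kcnip3, a related calcium-binding protein, fell from 5.12 to 4.76 in IRI (log2 difference -0.36, adjusted p = 0.00797) and to 4.82 in IRI + RPostC (adjusted p = 0.0174). These calls of Kcnip3 were kept by 14 and 10 of 16 alternatives. After centring both were lost, at -0.28 in IRI (adjusted p = 0.114) and -0.18 in IRI + RPostC (adjusted p = 0.279). The call in IRI was also lost by the methods' t-test (adjusted p = 0.0741). That in IRI + RPostC was also lost without IRI + RPostC replicate 1, 2 or 3 (adjusted p = 0.0585, 0.0504 and 0.0517).

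Other voltage-gated potassium channels differed less. Kcna5, the pore of the ultrarapid current, was 5.82, 5.95 and 6.11 on control, 6.61, 5.71 and 5.46 on IRI and 5.30, 5.61 and 5.71 on IRI + RPostC arrays, again with IRI replicate 1 high. The Kcna5 difference was -0.04 in IRI (adjusted p = 0.966) and -0.42 in IRI + RPostC (adjusted p = 0.358). Kcna4, also a transient outward pore, was not above background, and neither was Kcna1, a mainly neuronal pore, whose signal was lower by 0.71 in IRI (adjusted p = 0.00613) and 0.74 in IRI + RPostC (adjusted p = 0.00465). Kcnf1, a silent subunit, was lower in both comparisons, and Kcnd1 only in IRI + RPostC (-0.26, adjusted p = 0.0294), with neither above background in any group. Both lost their calls after quantile normalization and after centring, and 5 of 15 alternatives kept that of Kcnd1.

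The delayed rectifiers that end the plateau in large mammals gave mixed results. Kcnh2, the pore of the rapid current, was 5.26, 5.09 and 5.48 on control, 4.83, 4.81 and 4.70 on IRI and 4.83, 4.74 and 4.74 on IRI + RPostC arrays. It fell by 0.50 in IRI (SE 0.10, 1.41-fold, adjusted p = 0.0115) and by 0.50 in IRI + RPostC (adjusted p = 0.0103), without overlap with control, and to about the background limit. Kcnq1, the pore of the slow current, was 6.64, 6.69 and 6.75 on control, 7.63, 6.71 and 6.71 on IRI and 6.62, 6.71 and 6.71 on IRI + RPostC arrays. Its difference of 0.32 in IRI (adjusted p = 0.424) was 0.01 without IRI replicate 1. Its partner Kcne1 stayed below background in all 3 groups, and Kcne1l, which RefSeq lists as Kcne5, was lower in both comparisons (-0.36, adjusted p = 0.0472, and -0.45, adjusted p = 0.0173) but likewise not above background, and only 3 and 8 of 15 alternatives kept the Kcne1l calls. Kcnh8 was lower only in IRI + RPostC, by 0.23 (adjusted p = 0.042, kept by 4 of 14 alternatives), and was not above background.

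Inward rectifiers hold the resting potential and link it to acetylcholine and to ATP. Kcnj2, the main pore of the resting current, was 6.16, 5.42 and 6.14 on control, 5.10, 5.20 and 5.43 on IRI and 5.62, 5.43 and 5.43 on IRI + RPostC arrays. Control replicate 2 lay among the others, and the difference of -0.67 in IRI (SE 0.21) had an adjusted p of 0.0746, which became 0.00273 without control replicate 2. Kcnj12, the second pore of that current, was not above background. Kcnj3, a subunit of the acetylcholine-activated channel, was 6.23, 5.98 and 7.01 on control, 5.34, 4.93 and 5.34 on IRI and 5.21, 5.34 and 5.26 on IRI + RPostC arrays, all below control. Kcnj3 fell by 1.20 in IRI (SE 0.26, 2.30-fold, adjusted p = 0.0182) and by 1.13 in IRI + RPostC (2.19-fold, adjusted p = 0.0218), and 13 and 11 of 16 alternatives kept the calls; those lost included the fit without IRI replicate 2 (adjusted p = 0.0663) and the fits without IRI + RPostC replicates 1, 2 or 3 (adjusted p = 0.0678, 0.0619 and 0.0692). Its partner Kcnj5 was 5.45, 5.30 and 5.34 on average and did not pass.

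The ATP-sensitive channels pair a Kir6 pore with a sulfonylurea receptor. Kcnj8, the Kir6.1 pore of vessels, was 5.37, 5.05 and 5.37 on control, 5.72, 5.74 and 5.72 on IRI and 5.72, 6.21 and 6.74 on IRI + RPostC arrays. Both groups lay above control, with an increase of 0.96 in IRI + RPostC that passed (SE 0.24, 1.95-fold, adjusted p = 0.0305) and a difference of 0.47 in IRI that did not (adjusted p = 0.255). The call of Kcnj8 was kept by 9 of 16 alternatives and was lost without control replicate 1, 2 or 3 or IRI + RPostC replicate 2 (adjusted p = 0.0601, 0.0909, 0.0628 and 0.0868). Between IRI + RPostC and IRI the Kcnj8 difference was 0.49 (95% confidence interval -0.06 to 1.05), which did not pass. Kcnj11, the Kir6.2 pore of myocytes, was not above background in any group.

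Channels with a pair of pore domains give background potassium currents. Kcnk3 (TASK-1) was 7.57, 7.36 and 7.55 on control, 6.96, 7.10 and 7.09 on IRI and 7.06, 7.09 and 7.09 on IRI + RPostC arrays. It was below control on all 6 arrays and fell by 0.45 in IRI (SE 0.07, 1.36-fold, adjusted p = 0.00354) and by 0.42 in IRI + RPostC (1.34-fold, adjusted p = 0.00468), or by 1.15 and 1.20 after quantile normalization. Kcnk15 was lower only in IRI + RPostC, by 0.73 (adjusted p = 0.032), with 1 of its 9 arrays above background and the call kept by 9 of 15 alternatives.

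Kcnt2, a potassium channel opened by sodium, had the largest fall after Cacna1c on the deposited values (after quantile normalization Cacna2d1 fell more). It was 6.48, 6.13 and 5.85 on control, 4.78, 4.73 and 4.87 on IRI and 4.76, 4.60 and 4.55 on IRI + RPostC arrays, so that it ended at or below about the background limit. The fall was 1.36 in IRI (SE 0.15, 2.57-fold, adjusted p = 0.000705) and at least 1.33 in IRI + RPostC (at least 2.51-fold, adjusted p = 0.000368), and all 16 alternatives kept both calls. The calcium-activated channels did not pass: Kcnn1 was not above background, and Kcnn3 was 5.26, 5.39 and 5.41 on average in the 3 groups. Kcnmb1, the smooth muscle subunit of the large-conductance channel, averaged 5.28, 5.50 and 5.44 and did not pass either. Scn1a, Scn2a, Scn3a, Scn8a, Scn10a, Cacna2d2, Cacnb1, Cacnb3, Cacng7, Kcnd1, Kcnf1, Kcnn3 and Kcnmb1 were named after their values were seen.

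Between IRI + RPostC and IRI no channel gene passed. With limma, 0 genes were higher and 0 lower at an adjusted p under 0.05, as was the case for all 65403 probe sets (0% called), and the same 0 came from every alternative setting tried. Without adjustment, at a p under 0.05, 2 channel genes were lower and 0 higher, where 1.79% of all probe sets and 0.771% of genes were lower and 1.71% and 1.91% higher. The 95% confidence interval of the difference lay within 1 log2 unit of 0 for 122 of the 127 genes and 39 of the 44 above background. The 5 whose intervals reached further were Cacna1c, Kcna5, Kcnd3, Kcnj8 and Scn7a, so for these a difference of 1 was not excluded by the interval at 3 arrays a group.

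Scn7a and Kcnj1 were that pair. Scn7a was lower by 1.08 in IRI + RPostC (95% confidence interval -1.87 to -0.28, 2.11-fold, adjusted p = 1 with limma), and its IRI and IRI + RPostC arrays did not overlap. Kcnj1, an inward rectifier best known from kidney, was 5.22, 5.17 and 5.35 on IRI and 5.17, 4.87 and 4.90 on IRI + RPostC arrays, a difference of -0.27 (95% confidence interval -0.49 to -0.04, adjusted p = 1) with overlap only at IRI + RPostC replicate 1. Arrays of the 2 groups also did not overlap in Kcnd1, Kcng2, Kcnh8, Kcnj2, Kcnk15 and Kcnv2, which with Scn7a gives 4 lower and 3 higher genes, beside 3.2% of all probe sets and 1.68% of genes lower and 2.63% and 2.89% higher without overlap. The other genes of smallest p were Kcnj8 (difference 0.49), Kcne4 (0.32), Cacna2d1 (0.20) and Kcna4 (0.17) among those with a positive difference, and Kcnh8 (-0.14) and Cacng6 (-0.18) among those with a negative one. The interval of each of these 6 included 0.

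**Figure D4:**
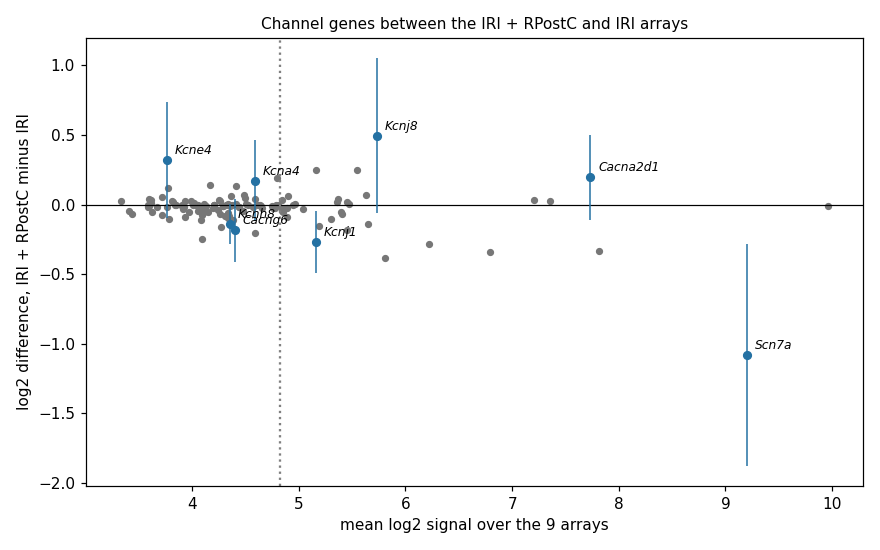
Log2 difference between IRI + RPostC and IRI (y axis) against the mean log2 signal over the 9 arrays (x axis) for the 127 channel genes; the 8 labelled genes of smallest p carry 95% confidence intervals, and the dotted line is the background limit. The interval of Scn7a, -1.87 to -0.28, and that of Kcnj1 exclude 0, at an adjusted p of 1 for both.

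IRI replicate 1 stood apart in several channel genes above background. On IRI replicate 1, 7 of the 44 genes above background were more than 0.5 above the mean of the other IRI arrays, and on each of the other 8 arrays 0 to 3 genes were. These 7 were Kcnd3 (1.30 above), Kcna5 (1.03), Kcnq1 (0.93), Cacna1c (0.90), Cacnb2 (0.87), Scn7a (0.70) and Kcnn3 (0.59), while Scn4b was 0.68 below. The 8 endothelial markers were all highest on the same array among the IRI arrays, with a mean 0.98 above that of the others. The cardiomyocyte marker mean was 0.02 above. Among those markers Actc1, Actn2, Mb, Myh7, Myl2, Tnni3, Tnnt2 and Ttn each carried the same value on every IRI array. Their mean could therefore hardly differ between IRI arrays and does not compare myocyte content. The part of endothelial cells or myocytes in these genes was not tested. Without that array 18 channel genes were lower and 2 higher in IRI, against 22 and 3 with it, and Scn7a was 3.05 above control.

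**Figure D5:**
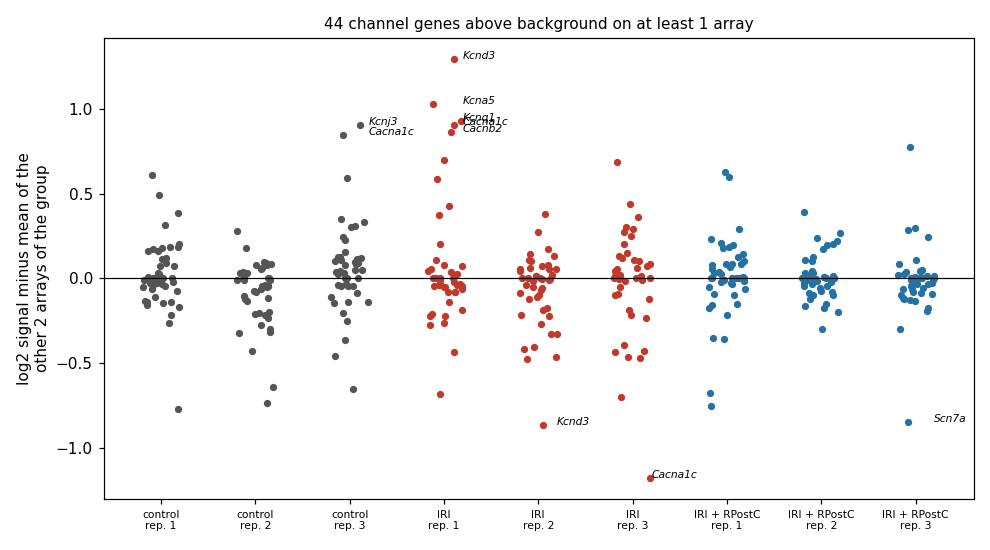
For each array (x axis), the log2 signal of the 44 channel genes above background minus the mean of the other 2 arrays of its group (y axis); points are genes, scattered sideways for legibility, and those beyond 0.8 are labelled. IRI replicate 1 holds Kcnd3 at 1.30 and 4 further labelled genes above 0.8, and IRI replicate 3 holds Cacna1c at -1.18.

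Of the 25 genes drawn up as the core of the cardiac action potential, 22 were measured, and 7 of them fell in IRI and 0 rose, namely Cacna1c, Cacna2d1, Hcn2, Kcnd2, Kcnh2, Kcnj3 and Kcnk3. That is 31.8%, beside 6.26% of all probe sets and 9.42% of genes lower. In IRI + RPostC 7 fell and 1, Kcnj8, rose, beside 6.95% and 9.84% lower and 10.7% and 10.2% higher. The medians over the 22 were -0.05 and -0.12, against -0.04 and -0.06 over all probe sets. No gene of this list passed between IRI + RPostC and IRI, where its median was -0.01.

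Genes that work with the channels moved in both directions. Of 28 of 34 listed partners and regulators, 4 rose (14.3%) and 6 fell (21.4%) in IRI, and 4 rose and 7 fell (25%) in IRI + RPostC. The shares of genes on the array were 8.9% higher and 9.42% lower in IRI, and 10.2% and 9.84% in IRI + RPostC. Fgf13, an intracellular factor that binds sodium channels, was 8.99, 8.66 and 9.48 on control, 6.85, 6.91 and 6.79 on IRI and 6.45, 6.94 and 6.97 on IRI + RPostC arrays. It fell by 2.19 (SE 0.22, adjusted p = 0.000421) and 2.26 (adjusted p = 0.000337), without overlap. Calm2, a gene for calmodulin, the calcium sensor of many channels, was 7.37, 7.87 and 7.05 on control, 11.32, 11.79 and 11.32 on IRI and 11.64, 12.31 and 11.85 on IRI + RPostC arrays, a rise of 4.05 (SE 0.26, adjusted p = 3.08e-05) and 4.50 (adjusted p = 1.55e-05). Calm3, another calmodulin gene, fell by 0.76 in IRI (adjusted p = 0.00517). The probe sets annotated to these 2 genes thus changed in opposite directions, also after quantile normalization and centring. Whether the Calm2 probe set measures the Calm2 transcript itself was not tested.

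Rrad, a small GTPase that restrains L-type channels, was 6.29, 6.26 and 6.84 on control, 9.54, 8.09 and 10.73 on IRI and 9.67, 8.89 and 8.68 on IRI + RPostC arrays, and rose by 2.99 (adjusted p = 0.0172) and 2.62 (adjusted p = 0.0285), calls kept by 10 and 9 of 16 alternatives. Akap9, an anchor for the kinase that acts on Kcnq1, rose by 1.64 in IRI (adjusted p = 0.000259), Cask, a scaffold that binds sodium channels, fell by 1.00 (adjusted p = 0.000997), and Fgf12 was 0.83 higher (adjusted p = 0.0277, kept by 8 of 16 alternatives). The sulfonylurea receptor Abcc8 was 0.25 lower (log2 difference -0.25, adjusted p = 0.0259), a call kept by 7 of 16 alternatives and lost after centring (adjusted p = 0.231). Abcc9, a brighter sulfonylurea receptor, averaged 10.69 in control, 10.41 in IRI and 10.60 in IRI + RPostC. Control and IRI arrays of Abcc9 did not overlap, but it did not pass with limma (adjusted p = 0.0712 in IRI).

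Among the 8 of 12 listed pumps and exchangers measured, 2 rose and 2 fell in IRI, 25% each way beside 8.9% of genes higher and 9.42% lower, and 3 rose and 2 fell in IRI + RPostC, beside 10.2% and 9.84%. Fxyd1 (phospholemman), the regulator of the sodium pump, fell by 1.02 in IRI (adjusted p = 0.00162), and the pump subunit Atp1b2 fell by 0.45 (adjusted p = 0.0128). The sodium, potassium and chloride cotransporter Slc12a2 rose by 1.13 in IRI (adjusted p = 0.00131), and after quantile normalization it was 0.36 higher and did not pass (adjusted p = 0.0608). The calcium pump Atp2b1 was 0.68 higher on the deposited values (adjusted p = 0.0003) and -0.04 after quantile normalization. The sodium-calcium exchanger Slc8a1 was 0.56 higher in IRI + RPostC (adjusted p = 0.0241) on the deposited values and -1.25 after quantile normalization, so its direction is not settled. Of the 6 of 7 gap junction genes measured, 0 passed in limma in either comparison with control, and without adjustment, at a p under 0.05, each comparison had 1 higher and 0 lower. Gjc1 came nearest, at 0.73 in IRI + RPostC (adjusted p = 0.0504). These partner, pump and gap junction genes were singled out from their lists after their values were seen.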

How the data were processed

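RNA of the left ventricle was measured on 9 arrays, grouped from the labels as control, IRI and IRI + RPostC. An Affymetrix rat gene chip is named in the methods but a human transcriptome array in the series record, and the probe sets carry rat annotation. The deposited values, made by the authors with robust multichip analysis (RMA), were read as log2 signals from their range of 2.04 to 19.93. The sources used here give neither the RMA software version nor any probe filter. Array number, not read depth, limits the precision.

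Of 65526 probe sets, 123 controls were left out. Symbols came from the platform annotation, and 126 of the 127 channel genes matched a RefSeq gene table. The deposited log2 values were fitted with limma 3.58.1 in R 4.3.3 (lmFit, eBayes, all 9 arrays, prior degrees of freedom 1.10), with Benjamini-Hochberg adjustment over 65403 probe sets. For a gene not above background in the dimmer group, "at least" marks the distance from the brighter mean to the limit. The fit was tested on simulated data for IRI + RPostC against IRI, on 65403 probe sets: 59% of 100 changes of 1 and 84% of 100 changes of 2 were recovered, with 14 false calls.

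Channel genes, lists and tests were chosen with earlier results of these data known. Genes named by rule, 40 in all, were the core list, the 4 higher and 4 lower of largest difference from control with a mean of at least 6, the 4 higher and 4 lower of smallest p between IRI + RPostC and IRI, and 2 per family of smallest F-test p. Alternatives were quantile normalization, centring on the array median, array weights, trend and robust eBayes, a replicate block, 2 groups alone, the leaving out of dim, bright or identical probe sets, the mean of a gene's probe sets, the methods' t-test, and each array left out in turn. Tables and figures used Python 3.11.15, numpy 2.4.6, scipy 1.17.1, pandas 2.3.3 and matplotlib 3.10.9. Of the core list, 3 genes are not analysed here.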

Additional observations from a re-analysis of the deposited data

How the results depend on the processing

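The 22 lower and 3 higher channel genes of IRI against control became 17 and 1 after quantile normalization, 13 and 3 after centring, 14 and 3 with the 2 groups alone or with dim probe sets left out (35 genes tested), 14 and 2 with identical values left out (74 genes tested), and 11 and 2 by the methods' t-test. For IRI + RPostC against control, 26 lower and 4 higher became 20 and 2 after quantile normalization, 14 and 4 after centring, 15 and 4 without dim probe sets, 16 and 3 without identical values, and 14 and 2 by the methods' t-test. The share of all probe sets called lower moved too: in IRI it was 6.26% on the deposited values, 13.7% after quantile normalization, 4.48% after centring, 4.29% with 2 groups alone, 14.1% without dim probe sets, 6.76% without identical values and 2.86% by the t-test, and the channel genes' share was above it under each of these but quantile normalization (13.4%). Over 1 probe set per gene the lower share was 9.42% on the deposited values. That share was not worked out for the other settings, so the channel genes are set only against all probe sets there. Leaving out 1 array at a time gave 16 to 23 lower and 2 higher genes in IRI, and 17 to 26 lower and 2 to 4 higher in IRI + RPostC; 17 lower came without IRI + RPostC replicate 3, and 2 higher without control replicate 1, 2 or 3 or IRI + RPostC replicate 2. No channel gene called in one direction on the deposited values was called in the other under any setting. The direction of Kcnip2 reversed under quantile normalization, to -0.62 in IRI and -0.69 in IRI + RPostC; the cause was not tested.

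With the replicate number as a block, 15 genes were lower and 2 higher in IRI, 18 lower and 2 higher in IRI + RPostC, and 0 passed between them. Deviations of arrays with the same number correlated at -0.30 to 0.04. Arrays of different number were not compared in this way, so these values do not settle whether the numbers pair the arrays. The 40 genes named by rule were also compared over all settings. A case counted as unchanged if a call was kept in its direction. An uncalled value counted as unchanged if it stayed uncalled and moved by less than the larger SD of the 2 groups, whatever its sign. For IRI 606 cases were unchanged, 31 lost a call and 5 gained one. In 14 an uncalled value moved further, and 1 reversed direction with a call. For IRI + RPostC the counts in this order were 582, 50, 6, 18 and 1. The 3 arrays a group, dim signals and repeated values limit what could be detected.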
